A study of Homo sapiens with 24 samples.

Results

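The genes described here are 43 genes in common use as markers of cell identity: 17 of endothelium, 14 of liver and its hepatocytes, 5 of epithelium, 6 of mesenchyme and 1 of leukocytes. They were taken by gene symbol from a table of estimated read counts for 58825 genes, and all 43 were found. Expression was measured in the human cell line SK-HEP-1, which was derived from a tumour of the liver and whose labels give the cell type as endothelial cells. All cells carried CRISPR interference, in which a guide RNA brings an inactive Cas9 with a repressor to a promoter. In 4 lines (sg2, sg4, sg5 and sg6, here the PURPL lines) the guide was aimed at PURPL, a long noncoding RNA that p53 induces, and in 2 lines (NTC1 and NTC2) it had no target. Each line received Nutlin-3a at 10 µM, which frees p53 from MDM2, or the solvent DMSO, for 6 h. The 12 combinations of line and treatment were harvested in 2 biological replicates each, numbered 1 and 3, which gave 24 libraries of polyadenylated RNA. Every guide stands for 1 established line, and whether a line is a clone is not given in the sources used here.

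Identity genes are held on by small sets of transcription factors that act together. In endothelium the ETS factors ERG and FLI1 keep junction and receptor genes such as CDH5, KDR and TEK active. In hepatocytes HNF4A works with the FOXA factors, which open chromatin, on genes for plasma proteins such as albumin and the apolipoproteins. Epithelial cells carry keratin pairs and EPCAM, while vimentin, CD44, NT5E and THY1 are typical of mesenchymal cells and of many cultured lines. SK-HEP-1 is often used as a liver cancer line, although its tissue of origin has been debated.

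Promoters of 3 members are shown because these genes mark the ends of the results: VIM had the highest level, ERG had no count in any library, and FOXA1 was the member whose levels in Nutlin-3a and DMSO did not overlap. Each is the 250 bases before a transcription start in RefSeq (GRCh38.p14), on the strand of the gene, with CG pairs in capitals. They lie at chr10:17227991-17228240 on the plus strand (VIM), chr14:37595250-37595499 on the minus strand (FOXA1) and chr21:38660668-38660917 on the minus strand (ERG).
VIM: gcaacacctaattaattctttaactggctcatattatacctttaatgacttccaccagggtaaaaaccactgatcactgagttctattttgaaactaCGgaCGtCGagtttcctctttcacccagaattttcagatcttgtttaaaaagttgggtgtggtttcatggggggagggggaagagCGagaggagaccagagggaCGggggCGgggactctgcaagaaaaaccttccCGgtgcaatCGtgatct
FOXA1: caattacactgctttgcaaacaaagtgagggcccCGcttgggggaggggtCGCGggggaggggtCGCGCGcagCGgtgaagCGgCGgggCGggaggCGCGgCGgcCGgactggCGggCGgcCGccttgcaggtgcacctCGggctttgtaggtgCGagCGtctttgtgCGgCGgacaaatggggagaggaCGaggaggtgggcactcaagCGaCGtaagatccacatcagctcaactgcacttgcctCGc
ERG: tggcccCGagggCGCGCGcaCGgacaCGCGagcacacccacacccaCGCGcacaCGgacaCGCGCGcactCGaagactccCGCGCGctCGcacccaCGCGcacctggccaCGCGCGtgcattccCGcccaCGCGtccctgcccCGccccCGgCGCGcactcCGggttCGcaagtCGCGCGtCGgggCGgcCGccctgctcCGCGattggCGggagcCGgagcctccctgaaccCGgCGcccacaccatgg

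These windows held 8 CG pairs (VIM), 26 (FOXA1) and 44 (ERG), against a median of 11 over 35116 RefSeq promoters. At least as many were found in 56.3% of all promoters for VIM, 19.6% for FOXA1 and 0.8% for ERG. ERG has 4 starts listed, and the windows of the other 3 held 2, 3 and 3 CG pairs. RefSeq promoters were matched for 26 of the 43 members. Of these, 9 genes at 1 CPM or more in DMSO had a median of 8 CG pairs in the first promoter listed (1 to 28), and 17 genes below 1 CPM had a median of 5 (0 to 44). The letters TATAAA, searched on the strand of the gene alone, were present in the first promoter listed of 3 members (S100A4, AFP and CYP3A4) and in 6.8% of all promoters.

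Library totals lay between 66.4 M and 92.1 M counts with a median of 74.2 M, and levels are given as CPM, counts per M of the library total after TMM scaling. The treatment showed in the p53 targets CDKN1A and MDM2, whose log2 fold changes over the 6 lines were 3.91 (SE 0.13) and 3.13 (SE 0.13). The guides lowered PURPL by a log2 difference of -3.92 (SE 0.29) in DMSO (edgeR adjusted p = 0.0127). One library stood apart, that of Nutlin-3a harvest 1 in sg2, and is called the divergent library. Relative to the median library its levels had a slope of 1.46 log2 units per 10 percentage points of transcript GC content, where the slopes of the remaining 23 libraries lay between -0.205 and 0.329. Results that it touches are given with and without it.

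In DMSO the line had high levels of mesenchymal transcripts and of the keratin pair KRT8 and KRT18, and few of those of endothelium or liver. Of the 43 members 13 reached a mean of 1 CPM in the 12 DMSO libraries: 4 of 6 mesenchymal, 3 of 5 epithelial, 3 of 17 endothelial and 3 of 14 liver genes. Summed over its members, the mesenchymal group had 5450 to 6390 CPM (median 5980) and the epithelial group 1360 to 2550 CPM (median 1800). The endothelial sum was 50 to 66.2 CPM (median 54.3) and the liver sum 6.02 to 8.67 CPM (median 6.84). The groups did not overlap in these libraries, but 1 gene led each sum: VIM made up 66.1% of the mesenchymal, KRT18 67% of the epithelial, ENG 47.6% of the endothelial and FOXA1 62.2% of the liver sum. In bulk RNA, fewer cells of a type and less RNA per cell cannot be told apart.

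**Figure D1:**
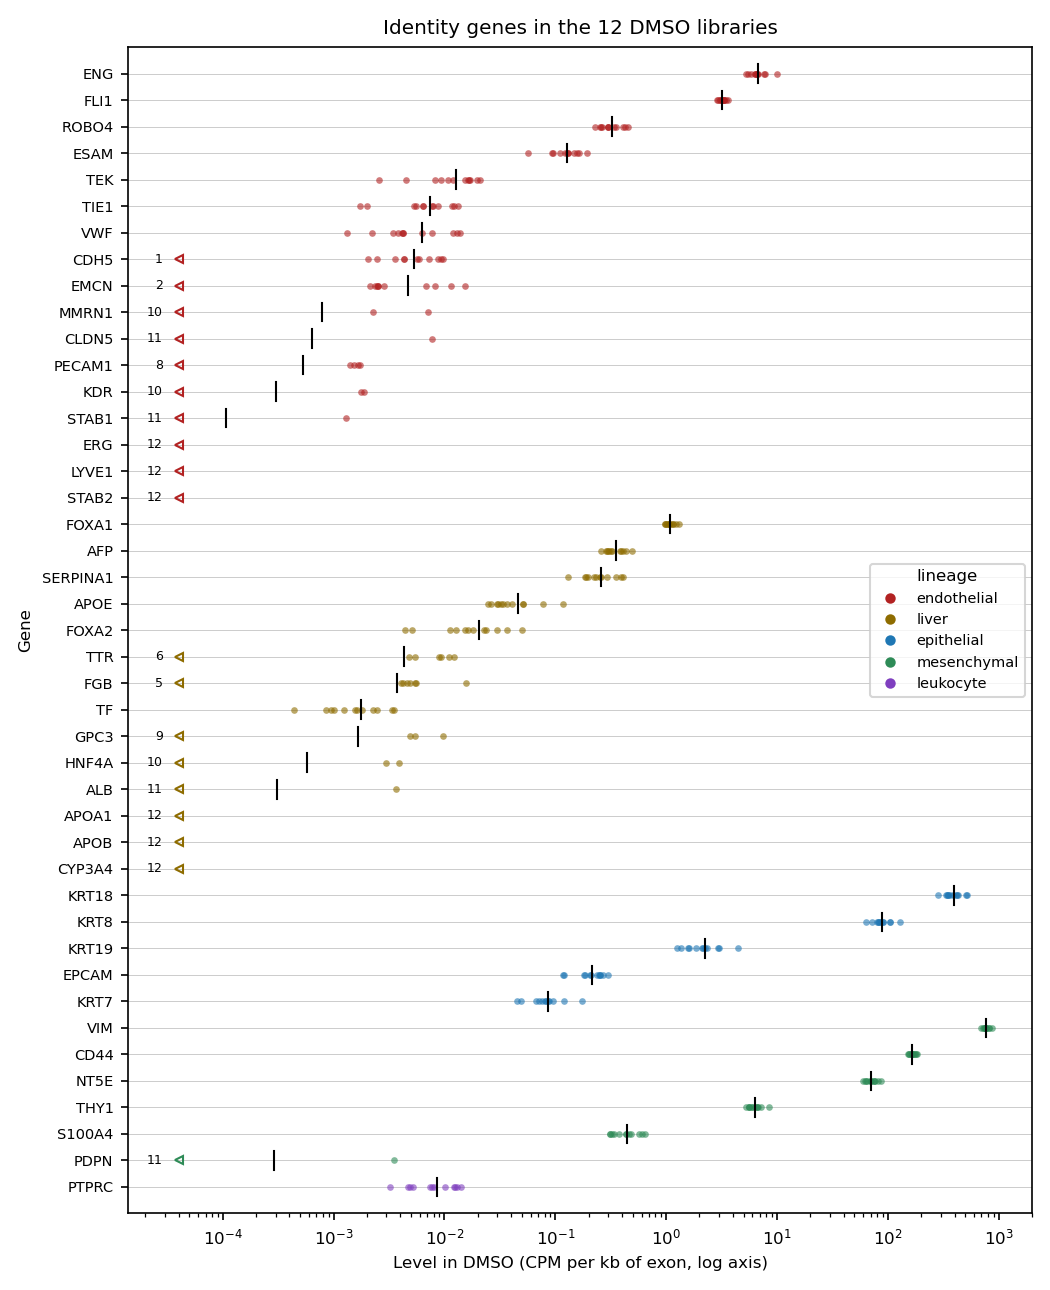
Levels of the 43 genes in the 12 DMSO libraries, as CPM per kb of exon on a log axis, by lineage. Points are libraries, black bars are means, and an open triangle at the left edge with a number beside it stands for that number of libraries with no count. VIM, KRT18 and CD44 lie at the right, and most endothelial and liver genes lie below 0.1.

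Per kb of exon, the mesenchymal genes were headed by VIM, the intermediate filament protein vimentin, at 767 ± 49.7 CPM per kb (SD, n = 12 libraries), the 15th highest of 58552 genes with a known exon length. CD44, the hyaluronan receptor, followed with 167 ± 10.0 CPM per kb, and NT5E, a surface enzyme that makes adenosine, with 71.2 ± 8.20 CPM per kb. The 3 ranges did not overlap. THY1, a surface glycoprotein of fibroblasts and stem cells, had 6.33 ± 0.908 CPM per kb, and the calcium-binding protein S100A4 had 0.441 ± 0.117 CPM per kb. Podoplanin (PDPN), found on lymphatic endothelium and some fibroblasts, had 1 count in 1 of 24 libraries. In the DMSO libraries CD44 had 1530 to 1840 CPM, VIM 3570 to 4530 CPM and NT5E 269 to 392 CPM.

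Of the 5 epithelial genes the keratin pair KRT8 and KRT18 was high and KRT19, EPCAM and KRT7 were far lower. KRT18 had 392 ± 70.6 CPM per kb and its partner KRT8 89.4 ± 17.3 CPM per kb. These genes lie on opposite strands of chromosome 12 and overlap, and the exon length of KRT8 (6881 bases) is that of all its annotated variants together, so the ratio of the pair is uncertain. KRT19, a keratin of ducts, had 2.24 ± 0.893 CPM per kb, EPCAM, an adhesion protein of most epithelia, 0.215 ± 0.0575 CPM per kb and KRT7 0.0863 ± 0.0342 CPM per kb. EPCAM was thus below 1 CPM in all 24 libraries, where it lay between 0.295 and 0.761 CPM. E-cadherin (CDH1), a defining epithelial marker outside the 43 genes, had 0 to 0.0596 CPM. Of 22 further epithelial genes, CDH1 included, 6 reached a mean of 1 CPM in DMSO. Among these 6, DSP had 51.6 to 97.8 CPM, KRT80 48.4 to 69.3 CPM and OCLN 23.6 to 32.9 CPM in the DMSO libraries. The table also lists 50 pseudogene copies of KRT8 and 67 of KRT18, whose summed CPM in DMSO came to 1.21% and 0.0572% of those of the genes.

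The endothelial label of the line was met by few of the markers that define the cell type. ENG, a coreceptor for TGF-beta that is also found outside endothelium, had 6.75 ± 1.26 CPM per kb, FLI1 3.22 ± 0.225 CPM per kb and ROBO4, a guidance receptor of vessels, 0.323 ± 0.073 CPM per kb. ESAM, an adhesion protein of endothelial tight junctions, came next with 0.127 ± 0.036 CPM per kb. The angiopoietin receptor TEK, its relative TIE1, the clotting carrier VWF, VE-cadherin (CDH5) and endomucin (EMCN) had means of 0.00471 to 0.0128 CPM per kb, and none of them reached 0.3 CPM in any of the 24 libraries. PECAM1 had 13 counts in all 24 libraries together, MMRN1 7, KDR, a receptor for VEGF, and the claudin CLDN5 4 each, STAB1 3 and STAB2 2, the last pair being scavenger receptors of liver sinusoids. ERG and LYVE1, a hyaluronan receptor of lymphatic and sinusoidal endothelium, had 0 counts in 24 libraries, which allows up to 0.00164 CPM over all of them together (3 counts, counting error only).

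The ETS factors of the endothelial group stood far apart in this line. FLI1 (ENSG00000151702.17, chr11:128686535-128813267 on hg38, plus strand) had 23.3 CPM in the lowest, 26.4 in the median and 29.8 in the highest DMSO library, whereas ERG (ENSG00000157554.19, chr21:38380027-38661780, minus strand) had no count. FLI1 is also known from blood cells and other tissues. An antisense transcript within it, SENCR, had 2.54 CPM in DMSO, and without knowledge of the strand used in counting some reads may be shared. ESAM and ROBO4 lie 121.4 kb apart on chromosome 11, and both ranked behind ENG and FLI1 among the 17 endothelial genes by level per kb.

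Among liver genes 3 (FOXA1, AFP and SERPINA1) reached 1 CPM in DMSO, APOE had a mean of 0.101 CPM, and the others were close to absent. FOXA1 (ENSG00000129514.6, chr14:37589984-37596059, minus strand), a factor that opens chromatin for hormone receptors and liver factors, had 1.09 ± 0.103 CPM per kb. AFP, the fetal counterpart of albumin, had 0.35 ± 0.0724, SERPINA1, the antitrypsin of plasma, 0.26 ± 0.0876 and the lipoprotein component APOE 0.046 ± 0.0271 CPM per kb (n = 12). FOXA2, the second FOXA factor, had 0.0205 ± 0.0132 CPM per kb. The nuclear receptor HNF4A had 7 counts in all 24 libraries and albumin (ALB) 3, although ALB lies only 9.7 kb from AFP on chromosome 4. Of the other secreted proteins FGB had 20 counts, TTR 12, and APOA1 and APOB 1 each. GPC3, a proteoglycan of the cell surface, had 4 counts, and CYP3A4, the main drug oxidase of liver, had 0. Transferrin (TF) had 95 counts, but its annotated span overlaps SRPRB on the same strand, which had 115 CPM.

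PTPRC, the CD45 antigen of all leukocytes, had 0.0295 to 0.13 CPM in DMSO. The members were thus ordered by level per kb as VIM, KRT18, CD44, KRT8, NT5E, ENG, THY1, FLI1, KRT19 and FOXA1 for the first 10. In this order the intervals of mean ± SD overlapped for KRT8 and NT5E, for ENG and THY1, and for FLI1 and KRT19, so those neighbours are not separated by their spread. The intervals of the other neighbours among the 10 did not overlap. The order also rests on exon lengths that join all annotated variants of a gene, an uncertainty these intervals leave out. By CPM without length, CD44 (1670 CPM) lay above KRT18 (1260 CPM) in DMSO. Of the 43 members 20 passed the filter of the tests (6 of 17 endothelial, 4 of 14 liver, 5 of 5 epithelial, 5 of 6 mesenchymal and 0 of 1 leukocyte genes), and 23 did not and were not tested for Nutlin-3a with all libraries. TIE1 passed through Nutlin-3a libraries alone, as it had at most 0.0893 CPM in DMSO. Its log2 fold change with Nutlin-3a thus follows in part from the filter. Without the divergent library TEK, EMCN and FOXA2 also passed, since sg2 with Nutlin-3a then had 1 library and the filter asked for 1 library only. The count of 13 members at 1 CPM was the same under 14 other settings of scaling and library choice.

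In DMSO no tested member was called as different among the 6 lines by edgeR's quasi-likelihood test (0 of 20 with an adjusted p under 0.05, beside 0.0183% of all genes), and 1 of 20 had an unadjusted p under 0.05, beside 1.67% of all genes. Without the divergent library 0 of 23 passed, beside 0.0659% of all genes, and 5 of 23 (VWF, SERPINA1, KRT8, KRT18 and KRT19) had an unadjusted p under 0.05, beside 12.9% of all genes. The lowest edgeR adjusted p there was 0.153, for SERPINA1. DESeq2 called 0 members as well. The ratio of the highest to the lowest line mean ran from 1.12 (VIM) to 4.76 (VWF, at levels under 0.15 CPM) and was at least 2 for 7 members. SERPINA1, for example, had 1.69 ± 0.345 CPM in sg2, 1.10 ± 0.189 in sg4, 1.01 ± 0.123 in sg5, 0.77 ± 0.184 in sg6, 1.88 ± 0.204 in NTC1 and 1.21 ± 0.0719 in NTC2 (SD, n = 2 harvests). The sg2 and NTC1 lines were thus the highest for this gene.

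NTC1 was the highest line in DMSO for 9 of the 20 tested members, namely ENG, ROBO4, AFP, SERPINA1, APOE, KRT8, KRT19, KRT7 and THY1. ENG averaged 35 ± 6.05 CPM (SD, n = 2 harvests) in NTC1 and 23.0 to 26.4 CPM in the other 5 lines. KRT19 averaged 8.74 ± 2.41 CPM in NTC1, 6.15 CPM in sg2 and 3.32 to 5.07 CPM in the rest. NTC1 was also the lowest line for 4 members. These were NT5E (275 CPM, against 313 to 352 CPM), CD44 (1540 CPM, against 1620 to 1730 CPM), FLI1 (24.1 CPM, against 25.2 to 28.0 CPM) and FOXA1 (3.99 CPM, against 4.17 to 4.74 CPM). The 2 harvests of NTC1 in DMSO had the highest GC slopes of the 12 DMSO libraries, 0.104 and 0.294. The 9 genes highest in NTC1 had 38.8% (AFP) to 68.5% (APOE) GC in their longest annotated transcript. The part of GC content in the order of lines was not tested.

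**Figure D2:**
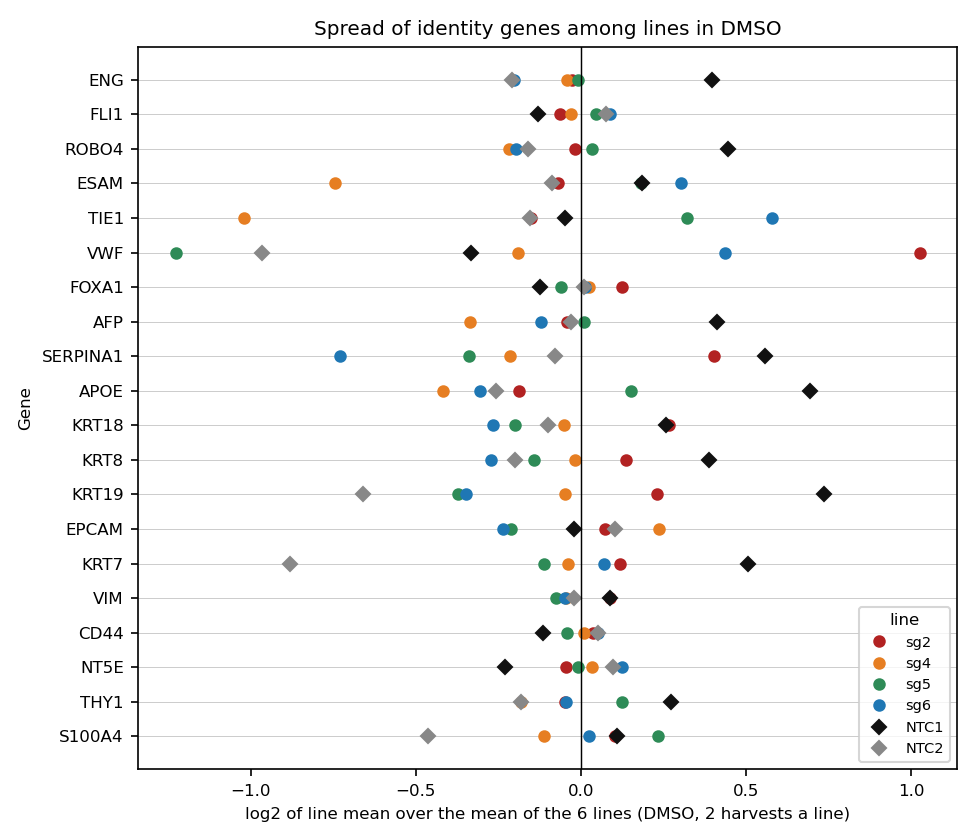
Line means in DMSO for the 20 tested genes, as log2 of the line mean (2 harvests) over the mean of the 6 lines. Circles are PURPL lines and diamonds NTC lines, and NTC1 (black) lies furthest right for 9 genes.

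With Nutlin-3a over the 6 lines, 4 of the 20 tested members rose (FLI1, ROBO4, SERPINA1 and KRT19) and 1 fell (FOXA1), by edgeR's quasi-likelihood test with adjusted p under 0.05. That is 25% of the tested members, beside 32.1% of all 16371 genes (15.2% higher and 16.9% lower). The median log2 fold change was 0.17 over the 20 members and 0.04 over all genes. Without the divergent library 7 of 23 were called (30.4%), 4 higher and 3 lower, beside 44% of all genes (17.8% higher and 26.2% lower), and the medians were 0.04 over the members and -0.02 over all genes.

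FOXA1 fell in every line. Its levels in the 12 Nutlin-3a libraries were 1.82 CPM at the lowest, 2.40 at the median and 2.63 at the highest, against 3.87, 4.27 and 5.20 CPM in the 12 DMSO libraries. No Nutlin-3a library reached the lowest DMSO library, which was so for 5.65% of all tested genes. The means were 2.37 ± 0.23 CPM with Nutlin-3a and 4.35 ± 0.409 CPM with DMSO (SD, n = 12 each), which came to -0.88 as log2 fold change (SE 0.08, edgeR adjusted p = 4.59e-07). By line, Nutlin-3a and DMSO stood at 2.18 and 4.74 CPM in sg2, 2.40 and 4.42 in sg4, 2.39 and 4.17 in sg5, 2.62 and 4.39 in sg6, 2.26 and 3.99 in NTC1, and 2.35 and 4.38 in NTC2. The gap between treatments was wider than that between lines, whose DMSO means differed by 1.19-fold at most. FOXA1 was called under all 31 alternatives, with log2 fold changes of -0.95 to -0.82 and adjusted p of 1.45e-28 to 2.69e-06. The divergent library held the lowest value, and without it the change was -0.86 (SE 0.06). The TTC6 gene on the other strand, which overlaps FOXA1, had 0.0198 CPM.

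The endothelial factor FLI1 rose by a small amount. Its Nutlin-3a libraries ran from 26.3 to 34.0 CPM (median 29.1) and its DMSO libraries from 23.3 to 29.8 CPM (median 26.4), so the groups overlapped, while each of the 6 line means was higher with Nutlin-3a. The log2 fold change was 0.16 (SE 0.05, edgeR adjusted p = 0.0203). ROBO4 (ENSG00000154133.14, chr11:124883691-124898500, minus strand) had 1.90 to 13.8 CPM with Nutlin-3a (median 2.88) and 1.60 to 3.16 CPM with DMSO (median 2.11). The change in ROBO4 was 0.64 (SE 0.21, edgeR adjusted p = 0.0312). It was higher with Nutlin-3a in 5 of 6 lines, and the groups overlapped. The value of 13.8 CPM was that of the divergent library, and the next highest was 4.57 CPM. Without it the change in ROBO4 was 0.34 (SE 0.11) and that in FLI1 0.12 (SE 0.04), with edgeR adjusted p of 0.0229 and 0.0232.

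SERPINA1 (ENSG00000197249.13, chr14:94376747-94390693, minus strand) was the liver gene that rose. Nutlin-3a libraries had 1.06 to 4.08 CPM (median 1.38) and DMSO libraries 0.64 to 2.02 CPM (median 1.20), with overlap, and all 6 line means were higher with Nutlin-3a. The log2 fold change was 0.40 (SE 0.13, edgeR adjusted p = 0.0271), and 0.26 (SE 0.10, adjusted p = 0.0334) without the divergent library, where the 4.08 CPM was found. KRT19 (ENSG00000171345.13, chr17:41523617-41528308, minus strand) was the epithelial gene that rose. It had 3.32 to 102 CPM with Nutlin-3a (median 6.38) and 2.95 to 10.4 CPM with DMSO (median 5.00), again with overlap. The 102 CPM came from the divergent library, and no other Nutlin-3a library exceeded 9.50 CPM. Its log2 fold change was 0.88 (SE 0.30, edgeR adjusted p = 0.0361) with and 0.35 (SE 0.13, adjusted p = 0.0417) without that library, and it was higher with Nutlin-3a in 5 lines and lower in NTC1.

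**Figure D3:**
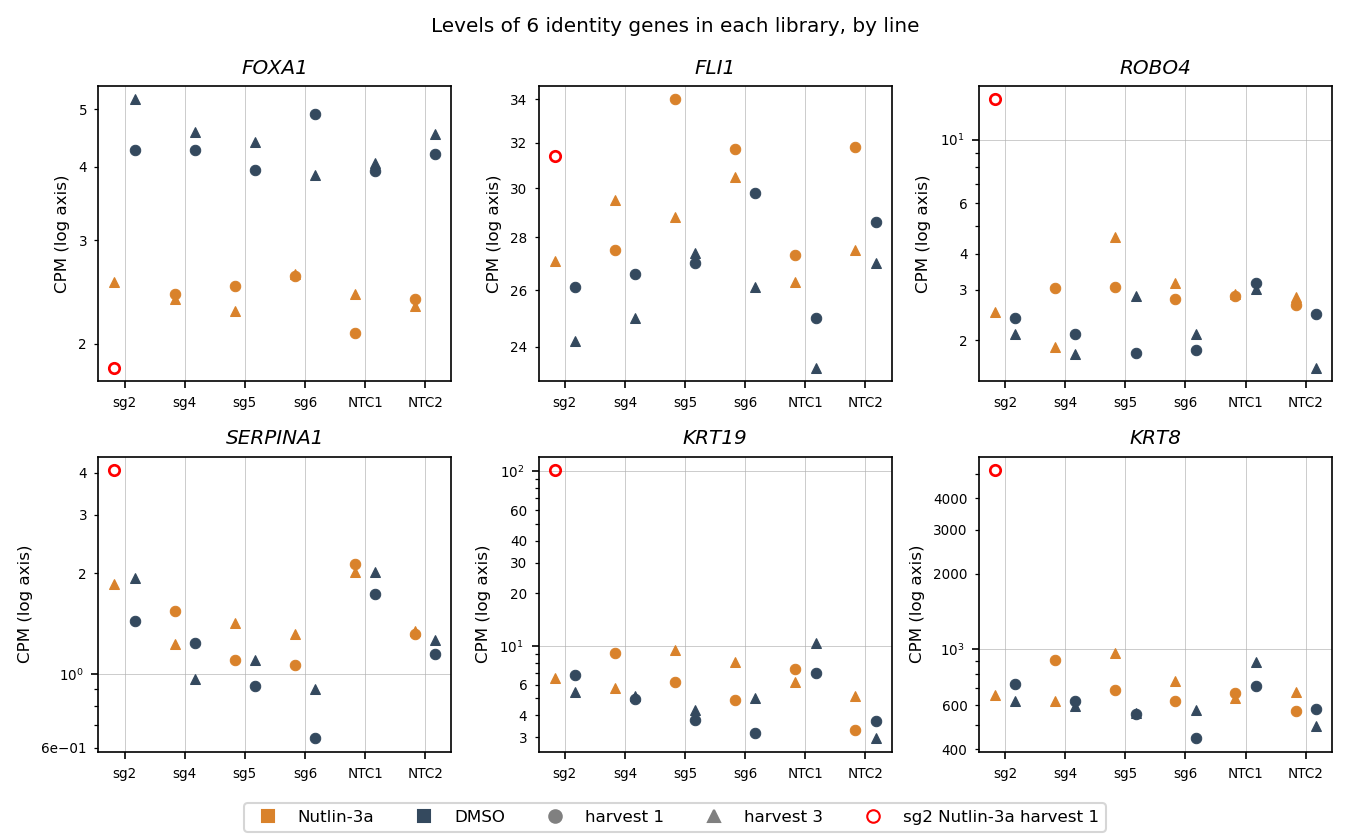
Levels (CPM, log axes) of 6 identity genes in every library, by line, with Nutlin-3a (orange) to the left of DMSO (dark blue). Circles are harvest 1 and triangles harvest 3, and the red open circle is the divergent library. All FOXA1 values with Nutlin-3a lie below all those with DMSO, and the red circle is the highest point for ROBO4, SERPINA1, KRT19 and KRT8.

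The calls of the 4 genes that rose were lost when most single libraries were left out, which leaves a group with 1 library that is assumed to vary like the others. Without sg2 Nutlin-3a harvest 3, the library left in that group is the divergent one. Its gap to harvest 3 then no longer enters the spread, so that fit does not remove its influence on the fold changes. Of the 7 other alternatives, such as other scaling, filters or DESeq2, ROBO4 and SERPINA1 were called in 7 and FLI1 and KRT19 in 6. With each of the 24 libraries left out in turn, FLI1 was called in 5 fits, ROBO4 in 6, KRT19 in 6 and SERPINA1 in 9, against 24 of 24 for FOXA1. All 4 were called without either Nutlin-3a library of sg2. FLI1 was otherwise called without sg6 DMSO harvest 1, NTC2 Nutlin-3a harvest 3 or sg5 Nutlin-3a harvest 3. For ROBO4 the others were NTC2 DMSO harvest 1, sg5 DMSO harvest 3, sg5 Nutlin-3a harvest 1 and sg4 Nutlin-3a harvest 3. For KRT19 they were harvest 1 of NTC2, sg5 and sg6 and harvest 3 of sg4, all with Nutlin-3a. For SERPINA1 they were sg4 DMSO harvest 1, harvest 3 of NTC1, sg2 and sg6 in DMSO, and in Nutlin-3a harvest 1 of sg5 and sg6 and harvest 3 of sg4. Over those fits the log2 fold changes stayed positive, at 0.10 to 0.15 for FLI1, 0.34 to 0.74 for ROBO4, 0.35 to 1.01 for KRT19 and 0.26 to 0.45 for SERPINA1, with edgeR adjusted p of at most 0.122, 0.0873, 0.0864 and 0.101.

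The remaining 15 tested members were not called over the 6 lines. Their log2 fold changes ran from -0.23 (EPCAM) to 1.32 (APOE, SE 0.50, edgeR adjusted p = 0.0557). For the 5 members at the highest levels the log2 fold changes were 0.02 (SE 0.04) for VIM, 0.27 (SE 0.14) for KRT18, 0.05 (SE 0.05) for CD44, 0.56 (SE 0.22, edgeR adjusted p = 0.0681) for KRT8 and -0.10 (SE 0.10) for NT5E. VIM, for instance, lay between 3610 and 4870 CPM with Nutlin-3a and between 3570 and 4530 CPM with DMSO. AFP had -0.04 (SE 0.09) and ENG 0.41 (SE 0.23). Without the divergent library the estimate for ENG was 0.04 (SE 0.11) and for KRT18 0.10 (SE 0.08). In that fit ESAM (-0.40, SE 0.16, edgeR adjusted p = 0.0485) and THY1 (-0.20, SE 0.08, adjusted p = 0.0492) also fell, with adjusted p over their alternatives of 0.0485 to 0.771 and of 5.94e-05 to 1. With all libraries they had -0.20 (SE 0.19) and 0.04 (SE 0.16).

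**Figure D4:**
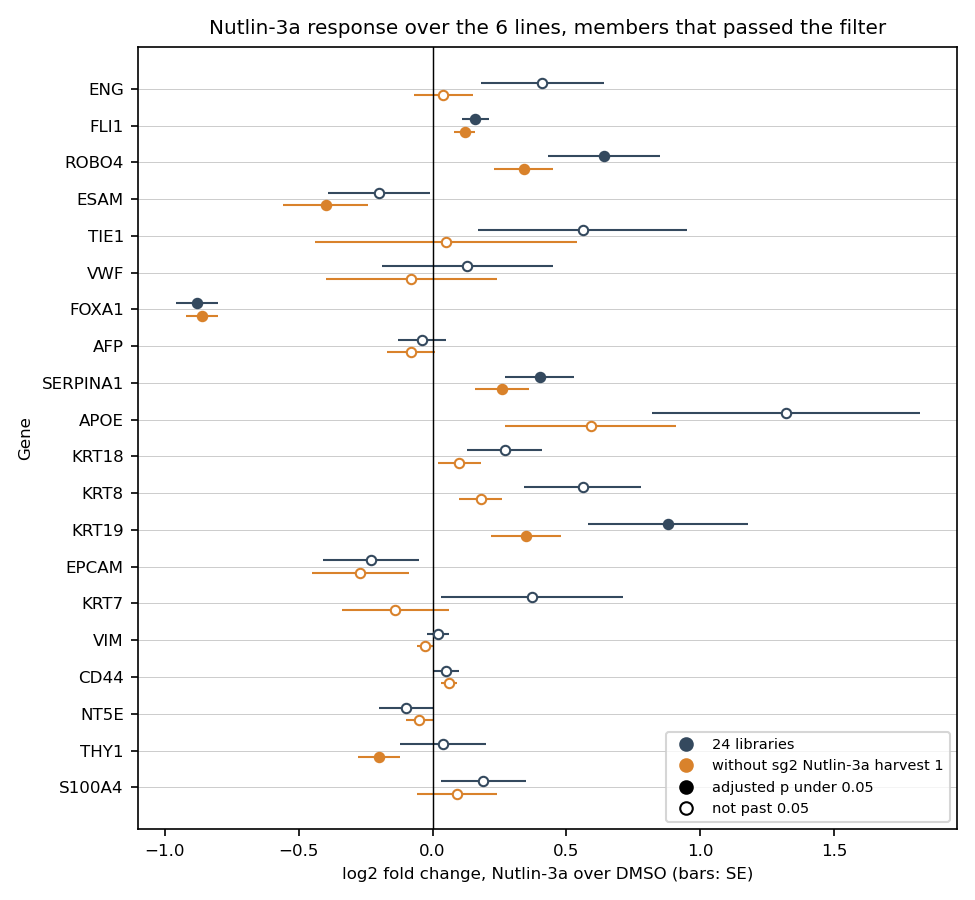
Log2 fold changes with Nutlin-3a over the 6 lines for the members tested with all 24 libraries (dark blue) and without the divergent library (orange), with SE bars. Filled points passed an edgeR adjusted p of 0.05. FOXA1 is at -0.88 and -0.86, and ROBO4, APOE, KRT8 and KRT19 lie closer to 0 without the divergent library.

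Removing the trend of each library on GC content raised the number of members called. In that fit 9 of 20 passed, beside 49.4% of all genes: FLI1 (0.26), ROBO4 (0.37), APOE (0.68), SERPINA1 (0.30), KRT8 (0.36), KRT19 (0.47) and CD44 (0.10) rose and FOXA1 (-0.91) and THY1 (-0.16) fell, with edgeR adjusted p of at most 0.0247. With the divergent library also left out, 9 members passed beside 51.4% of all genes. TEK (0.77, SE 0.29) was then among them and APOE was not. TEK passed the filter there only through sg5 Nutlin-3a harvest 1, with 0.227 CPM against at most 0.0996 CPM in DMSO. Its rise thus follows in part from the filter. FOXA1 stood at -0.84 (SE 0.06) there, KRT8 at 0.19 (SE 0.04) and KRT19 at 0.34 (SE 0.07).

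In the NTC lines alone FOXA1 was the only member that passed (1 of 20, or 5%, beside 8.21% of all genes, of which 4.18% higher and 4.03% lower), and 2 of 20 had an unadjusted p under 0.05, beside 19.5% of all genes. Its 4 libraries with Nutlin-3a had 2.09 and 2.43 CPM in NTC1 and 2.38 and 2.32 CPM in NTC2, against 3.93 and 4.05 CPM in NTC1 and 4.20 and 4.55 CPM in NTC2 with DMSO. The log2 fold change was -0.86 (SE 0.13, edgeR adjusted p = 0.000613). The divergent library belongs to another line and enters this contrast through the scaling. While sg2 Nutlin-3a harvest 3 is kept, the divergent library also enters through the estimate of the spread. Without it ESAM (-0.82, SE 0.26) and THY1 (-0.41, SE 0.13) fell as well, each with an edgeR adjusted p of 0.0289, so that 3 of 23 passed beside 24.8% of all genes (8.88% higher and 15.9% lower). Both were called with either Nutlin-3a library of sg2 left out and with no other single library left out. In a fit of the NTC libraries alone 3 members passed, beside 23.2% of all genes, among them THY1 (-0.34, SE 0.09, edgeR adjusted p = 0.0271) and not ESAM (-0.76, SE 0.26, adjusted p = 0.0675). ESAM had 0.194, 0.203, 0.333 and 0.175 CPM with Nutlin-3a and 0.37, 0.475, 0.378 and 0.323 CPM with DMSO, so that 1 Nutlin-3a library lay above the lowest DMSO library. THY1 had 30.0, 29.9, 27.3 and 32.6 CPM with Nutlin-3a and 39.9, 50.6, 35.2 and 31.1 CPM with DMSO, with overlap in 1 library again (each in the order NTC1 harvests 1 and 3, NTC2 harvests 1 and 3).

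In the PURPL lines 7 of 20 members passed (35%), 6 higher and 1 lower, beside 34.2% of all genes (17.7% higher and 16.5% lower). At an unadjusted p under 0.05 there were 10 of 20, beside 47% of all genes. FOXA1 fell by 0.89 on the log2 scale (SE 0.09, edgeR adjusted p = 5.31e-06), and FLI1 (0.18, SE 0.06), ROBO4 (0.88, SE 0.26), SERPINA1 (0.52, SE 0.16), KRT19 (1.33, SE 0.37), KRT8 (0.86, SE 0.27) and APOE (1.85, SE 0.61) rose with adjusted p of 0.0145 to 0.0321. KRT8 (ENSG00000170421.12, chr12:52897187-52949954, minus strand) had 621 CPM at the lowest, 720 at the median and 5190 at the highest of 8 Nutlin-3a libraries, against 442, 584 and 727 CPM in 8 DMSO libraries. APOE (ENSG00000130203.10, chr19:44905754-44909393, plus strand) had 0.0566, 0.201 and 4.15 CPM with Nutlin-3a and 0.0542, 0.0767 and 0.171 CPM with DMSO. Both maxima were those of the divergent library, and the groups overlapped for both genes. Without it 6 of 23 passed, beside 38.5% of all genes (15.9% higher and 22.6% lower). FOXA1 then stood at -0.84 (SE 0.08), and the genes that rose had log2 fold changes of 0.31 (SE 0.10) for KRT8, 0.55 (SE 0.17) for KRT19, 0.44 (SE 0.14) for ROBO4, 0.34 (SE 0.12) for SERPINA1 and 0.14 (SE 0.05) for FLI1, while APOE had 0.77 (SE 0.40, edgeR adjusted p = 0.143). With each library left out in turn, FOXA1 and KRT19 were called in 24 of 24 fits, ROBO4 in 18, SERPINA1 in 17, KRT8 in 14, APOE in 12 and FLI1 in 4. ROBO4 lost its call without harvest 1 of sg5 or sg6 in DMSO, harvest 3 of sg2 or sg4 in DMSO, or sg4 harvest 1 or sg5 harvest 3 in Nutlin-3a. SERPINA1 lost it without harvest 1 of sg2, sg5 or sg6 or harvest 3 of sg4 in DMSO, or without sg4 harvest 1 or harvest 3 of sg5 or sg6 in Nutlin-3a. KRT8 lost it without any DMSO library of the PURPL lines except sg6 harvest 3, or without sg4 harvest 1 or harvest 3 of sg5 or sg6 in Nutlin-3a. APOE lost it without any DMSO library of the PURPL lines except sg5 harvest 3, or without harvest 1 of sg2, sg4 or sg6 or harvest 3 of sg5 or sg6 in Nutlin-3a. FLI1 kept its call only without sg6 DMSO harvest 1, either Nutlin-3a library of sg2, or sg5 Nutlin-3a harvest 3. With the GC trend removed 7 of 20 members passed, beside 46% of all genes, and with the divergent library also left out 7, beside 45.5%. In a fit of the PURPL libraries alone FOXA1 (-0.89, SE 0.11, edgeR adjusted p = 0.000281) was the 1 member that passed, beside 21.6% of all genes, and the other 6 had adjusted p of 0.0526 (KRT19) to 0.0929 (FLI1). In the fit without sg2 Nutlin-3a harvest 3, the divergent library alone stood for that group. The 3 Nutlin-3a contrasts share libraries and are not independent of each other.

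No member was called between PURPL and NTC lines. In DMSO 0 of 22 members tested on line sums (4 PURPL against 2 NTC lines) passed, beside 0.00601% of all genes, and 0 had an unadjusted p under 0.05, beside 3.17% of all genes. The log2 differences ran from -0.52 (APOE, SE 0.36) to 0.81 (VWF, SE 0.61), with -0.21 (SE 0.15) for ENG, -0.34 (SE 0.35) for KRT19 and 0.08 (SE 0.11) for FOXA1. In Nutlin-3a 0 of 23 passed, beside 0% of all genes, and 2 had an unadjusted p under 0.05, beside 1.69% of all genes. PURPL itself was thus not called there. It had 0.743 to 2.9 CPM in the PURPL lines and 29.7 to 38.5 CPM in the NTC lines with Nutlin-3a. For that reason the absence of calls in Nutlin-3a cannot show that the members did not differ. Without the divergent library 0 of 22 passed, beside 0.00596% of all genes, and 0 had an unadjusted p under 0.05, beside 4.77% of all genes. For the difference of the Nutlin-3a responses, PURPL lines minus NTC lines, 0 of 24 passed, beside 0% of all genes, with 2 at an unadjusted p under 0.05 beside 3.6% of all genes, and 0 without the divergent library beside 5.81%. FOXA1 had a difference of -0.06 (SE 0.20) there, FLI1 0.04 (SE 0.09) and VIM -0.01 (SE 0.08). DESeq2 called 0 members in each of these 3 comparisons.

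With NTC2 left out, the 4 PURPL lines were set against NTC1 alone, a single sum assumed to vary like the PURPL lines, from which all of the spread then comes. In that fit 6 members passed beside 36.8% of all genes: ENG (-0.49, SE 0.07), ROBO4 (-0.55, SE 0.13), AFP (-0.55, SE 0.17), KRT19 (-0.88, SE 0.24) and THY1 (-0.33, SE 0.10) were lower in the PURPL lines and NT5E (0.25, SE 0.06) was higher, with edgeR adjusted p of 0.000151 to 0.037. With NTC1 left out, 0 members and 0.0469% of all genes passed. Against NTC1 alone, what a difference owes to the guide, the line or its libraries cannot be told apart.

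Further identity genes were read from a list of 108 markers of the same lineages, of which 107 were found and 59 passed the filter. CDH3, ICAM2, HPX and ITGAM passed through Nutlin-3a libraries alone, as none of them exceeded 0.119 CPM in DMSO. Their rises, which are among those counted next, follow in part from the filter. Over the 6 lines 11 rose and 6 fell with Nutlin-3a (28.8% of those tested, beside 32.1% of all genes), and 12 rose and 11 fell without the divergent library (38.3% of 60, beside 44% of all genes). In DMSO the endothelial genes of the list were led by PROCR, the receptor of protein C (44.8 CPM per kb), and the SOX factor SOX7 (6.61), and the epithelial genes by KRT80 (13.7) and the desmosome protein DSP (8.38). Among the liver genes CPS1, the first enzyme of the urea cycle, had 0.952 CPM per kb. SPARC (352), fibronectin (FN1, 162) and LGALS1 (51.7) led the mesenchymal genes and CD68 (9.23) the leukocyte genes, all in CPM per kb.

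ZEB1, ZEB2, TWIST1 and CDH2 fell and ACTA2 and FN1 rose among the mesenchymal genes of the list. ZEB1, a repressor of epithelial genes, had 28.3 to 62.7 CPM with Nutlin-3a (median 56.6) and 50.1 to 87.4 CPM with DMSO (median 76.9), a log2 fold change of -0.50 (SE 0.09). ZEB2 (-0.33, SE 0.07), TWIST1 (-0.31, SE 0.09) and N-cadherin (CDH2; -0.30, SE 0.06) fell as well, with edgeR adjusted p of at most 0.0135. ACTA2, smooth muscle actin, had 43 to 109 CPM with Nutlin-3a and 19.1 to 31.6 CPM with DMSO, without overlap, and rose by 1.28 (SE 0.10, edgeR adjusted p = 2.19e-07). Every Nutlin-3a library lay above every DMSO library for 3.14% of all tested genes. FN1 rose by 0.23 on the log2 scale (SE 0.07, edgeR adjusted p = 0.0161). TWIST1 was named after its value was seen, to complete the count. In all, 2 of 20 tested mesenchymal genes of this list rose and 4 fell, beside 15.2% of all genes higher and 16.9% lower.

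Among epithelial genes of the list, 2 of 10 rose and 1 fell, and this count and those that follow stand beside 15.2% of all genes higher and 16.9% lower. P-cadherin (CDH3) had 0.249 to 1.58 CPM with Nutlin-3a (median 0.503) and 0.0231 to 0.0994 CPM with DMSO (median 0.0734), without overlap, and rose by 3.01 (SE 0.27, edgeR adjusted p = 6.55e-07). Such a lack of overlap, with Nutlin-3a above, was found for 3.14% of all tested genes. CDH3 cannot be weighed against that share, as it passed the filter through Nutlin-3a libraries alone. The splicing factor ESRP2 rose by 0.75 (SE 0.17) at levels under 0.3 CPM, and occludin (OCLN) fell by 0.48 on the log2 scale (SE 0.09), with edgeR adjusted p of 0.0033 and 0.000832. Of 14 endothelial genes 3 rose and 1 fell: PROCR rose by 0.52 (SE 0.07, 97.3 to 181 CPM with Nutlin-3a and 66.9 to 91.5 CPM with DMSO), SOX7 by 0.28 (SE 0.05) and ICAM2 by 1.41 (SE 0.40, at levels under 0.31 CPM), while THBD fell by 0.33 on the log2 scale (SE 0.07). HPX, the heme carrier of plasma, was the 1 of 8 liver genes that rose, by 1.47 (SE 0.24) to 0.127 ± 0.065 CPM with Nutlin-3a, against 0.0432 ± 0.0118 CPM with DMSO. Of 7 leukocyte genes, CD68 (0.42, SE 0.15), ITGAM (1.32, SE 0.28) and CD33 (0.37, SE 0.10) rose. Because CDH3, ICAM2, HPX and ITGAM passed the filter only through Nutlin-3a libraries, the counts that hold them cannot be weighed against the share of all genes. PTPRC had 0.0139 to 0.123 CPM with Nutlin-3a and 0.0295 to 0.13 CPM with DMSO. These 17 genes were also called without the divergent library, where CD68 stood at 0.20 (SE 0.07) and ITGAM at 0.97 (SE 0.21).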

How the data were processed

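Polyadenylated RNA of 24 libraries was sequenced from a stranded kit, per the labels' protocols. The authors deposited 1 table of estimated counts per gene; cutadapt, STAR, RSEM, DESeq2 and hg38 are named in the submitters' processing notes, without versions, and the strand setting is not given in the sources used here. Estimated counts (5.6 to 7.16% of values per library were not whole) were rounded, and 45 rows of the Y pseudoautosomal copies, with 0.0222% of counts, were merged with their X copies. Exon lengths and GC content came from GENCODE 29, in which 58552 gene IDs were matched without regard to version. GC content was that of the longest transcript of each gene. edgeR 4.0.16 in R 4.3.3 was used with TMM scaling, filterByExpr (minimum count 10), robust quasi-likelihood fits of 12 group means with 12 residual degrees of freedom, and Benjamini-Hochberg adjustment over all genes tested, called at 0.05. PURPL and NTC lines were compared on sums of the 2 harvests of each line, since guides were assigned to lines. Alternatives were other scaling and filters, DESeq2 1.42.0, removal of each library's trend on GC content (lowess span 0.3, 99.7% of genes with a value), a replicate block, and libraries or lines left out. The fits were tested on simulated data. Values per sample were given for called members and for the 3 highest of each lineage. Of 108 further identity genes, up to 3 per lineage with the highest level and up to 4 called with the smallest p were named. CDH1 was named besides, as a marker of the epithelial cell type. One gene of that list is not reported here. Members, lists and tests were chosen with earlier results of these data known. Libraries of a group are harvests of 1 line, so p-values of the Nutlin-3a contrasts measure the spread between harvests of these lines.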

Additional observations from a re-analysis of the deposited data

Results flagged for a closer look

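In sets of 4 or 8 libraries (PURPL or NTC lines under 1 treatment), the highest or lowest library of a member was compared with its nearest neighbour. Of 80 sets 19 held a library whose gap to the others exceeded Dixon's 95% critical value, where chance gives about 1 in 20. In 14 of these 19 it was the divergent library, sg2 Nutlin-3a harvest 1, among the 8 Nutlin-3a libraries of the PURPL lines.

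In that library 12 members lay above the other libraries and 2 below. KRT8 had 5190 CPM (621 to 964 CPM in the other 7 libraries), KRT18 3700 CPM (1120 to 1690), KRT19 102 CPM (4.91 to 9.5) and KRT7 5.04 CPM (0.209 to 0.542). ENG had 180 CPM (23.2 to 51.3), ROBO4 13.8 CPM (1.9 to 4.57), VWF 0.274 CPM (0.0254 to 0.125), APOE 4.15 CPM (0.0566 to 0.264) and SERPINA1 4.08 CPM (1.06 to 1.86). THY1 had 110 CPM (26.7 to 51.6), VIM 4870 CPM (3610 to 4080) and S100A4 1.13 CPM (0.312 to 0.641). FOXA1, at 1.82 CPM (2.27 to 2.63), and NT5E, at 153 CPM (283 to 351), were below the rest.

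In 5 sets the library was one of the NTC lines. In DMSO NTC1 harvest 3 had 4530 CPM of VIM (3870 to 3930 in the other 3 libraries) and 0.659 CPM of S100A4 (0.317 to 0.334). In Nutlin-3a KRT7 had 0.515 CPM in NTC1 harvest 3 (0.212 to 0.249), NT5E 282 CPM in NTC1 harvest 1 (319 to 326) and TIE1 0.05 CPM in NTC2 harvest 3 (0.0271 to 0.0303).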

How the results depend on the processing

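The number of members at 1 CPM or more in DMSO was 13 under 14 alternatives, and members called among lines in DMSO were 0 under 31. For Nutlin-3a over the 6 lines (5 called), 3 members were called with no filter on low counts, 9 with the GC trend removed, 9 with it removed and the divergent library left out, and 1 to 11 with single libraries left out. In the NTC lines (1 called) these were 2 and 4 for the GC settings (beside 23.2% and 30.5% of all genes, against 8.21%), 3 with only the lines compared (23.2%) and 1 to 3 with libraries left out. In the PURPL lines (7 called, beside 34.2%) 1 member was called with only the lines compared (21.6%). The counts also moved with single libraries left out. The share of all genes called moved with the setting too, so these counts show no change particular to the members. Between PURPL and NTC lines in DMSO 0 to 6 members were called with a line left out, 6 without NTC2. THY1 over the 6 lines (0.04) changed sign: -0.16 with the GC trend removed, -0.2 with the divergent library also left out, and -0.2 to 0.13 with single libraries left out. The cause was not tested. Harvest numbers were not taken as pairing: deviations from the group means correlated at 0.019 to 0.324 within lines. With the replicate block the number of members called was that of the main fit in every comparison.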
